A study of Homo sapiens with 16 samples.

Results

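The genes described here encode the core of protein phosphatase 2A (PP2A) and its B55 regulatory subunits. They are 8 genes of the 63187 in the gene tables, taken by symbol: the catalytic subunits PPP2CA and PPP2CB, the scaffold subunits PPP2R1A and PPP2R1B, and the B55 subunits PPP2R2A, PPP2R2B, PPP2R2C and PPP2R2D. All 8 passed the filter on low counts. The set was chosen by the measured level of PPP2R2B, which an earlier analysis of the same libraries had found lower in FL than in WT. Its values against WT are therefore given as a description. Calls of PPP2R2B against WT are counted only under the dependence on processing, and they support nothing about it. The other 7 genes were added because of their place in the same enzyme, and not for how they moved.

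The libraries came from SK-N-BE(2), a human MYCN-amplified neuroblastoma cell line grown at 21% oxygen with 10% serum. WT cells carried no listed construct, and the other 3 groups were transfected with HIF-2α: FL is the full-length protein, and NCTAD and cIDR are constructs that the series text writes as ΔN-CTAD and Δc-IDR. The sample labels leave out the delta sign. Whether WT cells received an empty vector, which vector drove the constructs and how long after transfection RNA was taken are not given in the sources used here. Each group had 4 libraries, 1 from each of batches 1 to 4, and the labels number the batches without saying what the libraries of a batch shared. Nothing in the labels states that the libraries of a group came from separate cultures, so p-values measure the spread between these libraries, which may be technical.

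PP2A is a major serine/threonine phosphatase of animal cells. A scaffold subunit and a catalytic subunit form the core enzyme, and a regulatory B subunit joins the core and sets which substrates are reached and where in the cell. The B55 subunits form 1 family of such regulators and are known for roles in mitotic exit and in growth signalling. PPP2R2B, which encodes B55 beta, and PPP2R2C, which encodes B55 gamma, are known mainly from neurons, whereas PPP2R2A and PPP2R2D are expressed widely. A repeat expansion in the 5′ region of PPP2R2B causes a form of spinocerebellar ataxia.

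PPP2R2B (ENSG00000156475.19) lies on chromosome 5 from 146580742 to 147081520, on the minus strand of GRCh38.p14 as RefSeq annotates it. The RefSeq promoter table holds 2 start sites for it. The 250 bases before each start are printed because PPP2R2B is the gene with the widest range here and the transfected protein is a transcription factor. HIF proteins bind a short core that is written ACGTG or GCGTG, and capitals mark these letters. The first window is chr5:147055962-147056211 and the second is chr5:146878758-146879007, both read 5′ to 3′ on the minus strand.
PPP2R2B start 1: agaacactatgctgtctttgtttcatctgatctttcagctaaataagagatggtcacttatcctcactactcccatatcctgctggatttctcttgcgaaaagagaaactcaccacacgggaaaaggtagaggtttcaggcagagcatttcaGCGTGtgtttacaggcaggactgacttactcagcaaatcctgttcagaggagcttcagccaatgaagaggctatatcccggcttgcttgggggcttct
PPP2R2B start 2: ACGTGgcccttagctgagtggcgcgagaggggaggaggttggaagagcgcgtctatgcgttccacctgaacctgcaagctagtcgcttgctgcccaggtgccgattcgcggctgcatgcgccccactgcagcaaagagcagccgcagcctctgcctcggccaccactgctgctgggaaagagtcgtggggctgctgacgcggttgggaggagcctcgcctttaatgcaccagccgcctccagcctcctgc
The first window held GCGTG, beginning 98 bases before the start, and the second held ACGTG at its far edge, 250 bases before the start. Both motifs were searched on both strands. ACGTG is also the inner part of the E-box letters CACGTG, and the base before the match lies outside the second window. Of 34788 promoter windows of this length, 18.5% held ACGTG, 32.2% held GCGTG and 43.1% held either. Among the 8 genes, 6 had windows in the table, and 6 of their 13 windows held either motif. A match of letters is a description and says nothing of binding in these cells.

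The labels and cell identity were checked first. EPAS1, the gene of HIF-2α, was at 13.0 to 28.1 CPM (counts scaled to a common library size) in the WT libraries and at 1320 CPM or more in each of the 12 libraries with a construct. All 8 markers of sympathetic neuroblastoma were above 1 TPM (the deposited level corrected for transcript length and library size) in the median library, with TH lowest at 2.44 TPM. SOX10, COL1A2, PTPRC and CD3E, which mark Schwann, fibroblast and immune cells, had a median of 0 TPM. Summed fibroblast markers ranged from 34.2 to 55.9 TPM in WT and from 27.9 to 62.9 TPM over the constructs, carried by DCN and PDGFRB. The libraries held 38572655 to 56065781 estimated counts each. Gene CPM was computed on library sizes scaled by the trimmed mean of M values (TMM).

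Levels of different genes were compared per length, in TPM. The main catalytic gene and the main scaffold gene stood at the top: PPP2CA had a median of 349 TPM over the 16 libraries and PPP2R1A 279 TPM. PPP2R2A followed at 86.0 TPM and PPP2CB, the minor catalytic gene, at 66.4 TPM. PPP2R2D was at 25.7 TPM, PPP2R2B at 22.0 TPM and PPP2R1B, the minor scaffold gene, at 14.9 TPM. PPP2R2C was lowest, at 0.783 TPM, with 82 to 242 counts in a library. The ranges of PPP2CA (270 to 436 TPM) and PPP2R1A (234 to 332 TPM) overlapped, as did those of PPP2R2A (64.3 to 101 TPM) and PPP2CB (53.2 to 79.0 TPM). PPP2R2B, from 8.75 to 47.8 TPM, overlapped both PPP2R2D and PPP2R1B.

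PPP2R2B had by far the widest range of the 8. On the CPM scale its highest library was 5.81 times its lowest. PPP2R2C followed with a ratio of 2.50, and the other 6 genes lay between 1.16 and 1.51.

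PPP2R2B was lower in every library with a construct than in any WT library. In WT it was at 205, 215, 291 and 354 CPM in batches 1, 2, 3 and 4. In FL it was at 61.0, 80.8, 130 and 140 CPM in the same batches. In NCTAD it was at 113, 69.0, 166 and 157 CPM. In cIDR it was at 99.3, 66.8, 167 and 160 CPM. WT and constructs did not overlap, since the highest construct library (cIDR, batch 3) lay under the lowest WT library (batch 1). The share of all genes without such an overlap is not given here. WT averaged 266 ± 70.0 CPM, FL 103 ± 38.1, NCTAD 126 ± 44.6 and cIDR 123 ± 48.5 (SD, n = 4 each).

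**Figure D1:**
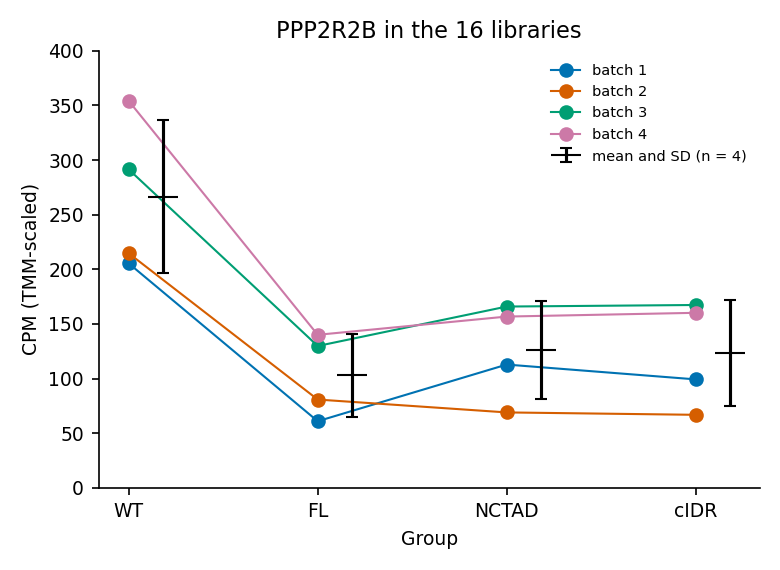
CPM of PPP2R2B (vertical axis) in the 4 groups (horizontal axis). Points are libraries, lines join the libraries of a batch, and bars give the mean and SD of 4 libraries; the WT points start at 205 CPM and no construct point lies above 167 CPM.

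Set against the WT library of its own batch, FL held 29.7%, 37.6%, 44.5% and 39.5% of the PPP2R2B level in batches 1 to 4. NCTAD held 54.9%, 32.2%, 56.9% and 44.3%. cIDR held 48.3%, 31.1%, 57.4% and 45.2%. The highest of the 12 shares was 57.4%, and NCTAD and cIDR were both at their lowest in batch 2. The mean within-batch difference in log2 CPM was -1.42 ± 0.25 for FL, -1.12 ± 0.38 for NCTAD and -1.17 ± 0.37 for cIDR (SD, n = 4 batches). For comparison, the share of all 19530 genes tested that were lower in 4 of 4 batches was 3.94% for FL, 6.48% for NCTAD and 7.12% for cIDR. The 3 comparisons share the WT libraries.

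The model with group as its only term gave log2 fold changes against WT of -1.37, -1.08 and -1.11 for PPP2R2B in FL, NCTAD and cIDR. With the batch number as a block they were -1.41 ± 0.14, -1.12 ± 0.14 and -1.17 ± 0.14 (SE). These values are a description. For the other 7 genes, calls were made in edgeR's quasi-likelihood test at an adjusted p under 0.05. The group-only fit called 0 of the 7 in each of the 3 comparisons with WT, with 0 at an unadjusted p under 0.05, and DESeq2 called 0 as well. The fit with the block also called 0 of the 7 in each, with 1 at an unadjusted p under 0.05 (PPP2R1A in FL). Across all genes the group-only fit called 0.0102% in FL, 0.0256% in NCTAD and 0.0102% in cIDR. The fit with the block called 0.102%, 0.456% and 0.486%.

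The constructs were also set against each other. The values of PPP2R2B against FL use the FL libraries that entered its choice, so they are given as a description. In log2 CPM, NCTAD minus FL was 0.29 ± 0.33 (SE), and with the block 0.29 ± 0.14. It was 0.11 without the FL library of batch 1 and 0.50 without the NCTAD library of batch 2, the range over single libraries left out. In cIDR minus FL it was 0.26 ± 0.33, and with the block 0.24 ± 0.14. That value was 0.078 without the cIDR library of batch 3 and 0.47 without the cIDR library of batch 2. FL lay below NCTAD and below cIDR in 3 of 4 batches, and above both in batch 2, and on the log2(TPM + 0.1) scale it lay below each in 2 of 4. The difference of cIDR from NCTAD compares neither FL nor WT levels, although its SE and p take their spread from all 16 libraries. There PPP2R2B differed by -0.032 ± 0.33 (SE; edgeR adjusted p = 1.00), with cIDR lower in 2 of 4 batches. It was -0.23 without the NCTAD library of batch 2 and 0.17 without the cIDR library of batch 2. Of the other 7 genes, 0 were called in each of the 3 contrasts in edgeR, with or without the block, and in DESeq2, and 0 had an unadjusted p under 0.05 in edgeR. Over all genes, the calls for NCTAD against FL, cIDR against FL and cIDR against NCTAD were 0%, 0% and 0% in the group-only fit. With the block they were 0%, 0.0307% and 0.00512%. These values do not show that the constructs act alike.

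The other B55 genes showed no called difference from WT. PPP2R2A, the most abundant of the family, averaged 110 ± 2.86 CPM in WT, and 109 ± 7.52, 113 ± 4.68 and 110 ± 3.89 CPM with FL, NCTAD and cIDR (SD, n = 4). PPP2R2D was at 36.9 ± 2.06, 38.6 ± 5.45, 39.1 ± 2.46 and 38.0 ± 0.77 CPM in the same order. PPP2R2C was at 2.53 ± 0.86, 2.95 ± 1.11, 2.80 ± 1.19 and 2.66 ± 1.09 CPM. The groups overlapped for each of these genes. PPP2R2C in FL was higher than in WT in 4 of 4 batches, by 0.22 ± 0.34 in log2 CPM (SE; edgeR adjusted p = 1.00) and by 0.21 ± 0.11 with the block. Without the FL library of batch 2, the group-only value became -0.074. The value with the block lay from 0.16 to 0.24 over single libraries left out. PPP2R2D in NCTAD was also higher than in WT in 4 of 4 batches, by a mean within-batch difference of 0.084 ± 0.046 in log2 CPM (SD, n = 4 batches). Of all genes tested, 9.26% moved the same way in 4 of 4 batches in FL and 15.3% in NCTAD.

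The core genes also overlapped between groups. PPP2CA, the main catalytic subunit, averaged 281 ± 25.3 CPM in WT, and 285 ± 28.5, 293 ± 33.7 and 285 ± 29.5 CPM with FL, NCTAD and cIDR (SD, n = 4). PPP2CB was at 85.3 ± 5.11, 82.0 ± 8.05, 85.9 ± 6.86 and 87.0 ± 7.95 CPM. PPP2R1B was at 33.2 ± 1.62, 33.6 ± 2.23, 34.9 ± 2.40 and 33.8 ± 2.18 CPM. PPP2R1A, the main scaffold, was at 347 ± 22.8, 390 ± 53.9, 374 ± 75.8 and 370 ± 48.3 CPM. It was higher in FL than in WT in 4 of 4 batches (3 of 4 on the log2(TPM + 0.1) scale), by 0.17 ± 0.13 in log2 CPM (SE) and by 0.16 ± 0.064 with the block. Without the FL library of batch 1 the group-only value was 0.060. With the block and all libraries, PPP2R1A in FL had the smallest unadjusted edgeR p of the 7 genes against WT (0.0254). Its edgeR adjusted p in that fit was 0.920. Over these 7 genes the group-only log2 fold changes lay from -0.056 to 0.22 in FL, from 0.012 to 0.14 in NCTAD and from 0.0041 to 0.093 in cIDR. Without the WT library of batch 2, the largest absolute group-only value among the 7 was 0.49 for FL (PPP2R2C), 0.41 for NCTAD and 0.34 for cIDR. With the block, the largest over any single library left out was 0.24, 0.16 and 0.12. Directions this small depended on the scale. On the log2(TPM + 0.1) scale the mean within-batch difference in NCTAD was -0.074 for PPP2R2A and -0.083 for PPP2CB, each lower than WT in 4 of 4 batches, -0.046 for PPP2CA and -0.0079 for PPP2R1A. For cIDR on that scale, PPP2R2A (-0.073), PPP2CA (-0.066) and PPP2CB (-0.055) were lower in 4 of 4 batches, and PPP2R2C (-0.026), PPP2R2D (-0.011) and PPP2R1A (-0.027) were also negative. For FL, PPP2R2A (-0.079), PPP2CA (-0.093), PPP2CB (-0.11) and PPP2R1B (-0.067) were negative. All genes shifted down on that scale: the limma medians against WT for cIDR, NCTAD and FL, in that order, were -0.068, -0.071 and -0.028. The values listed above for cIDR and NCTAD lay near or above these medians. The 4 FL values lay below theirs, with SDs of 0.25 to 0.37 over the 4 batches. The share of all genes lower in 4 of 4 batches on that scale is not given here.

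**Figure D2:**
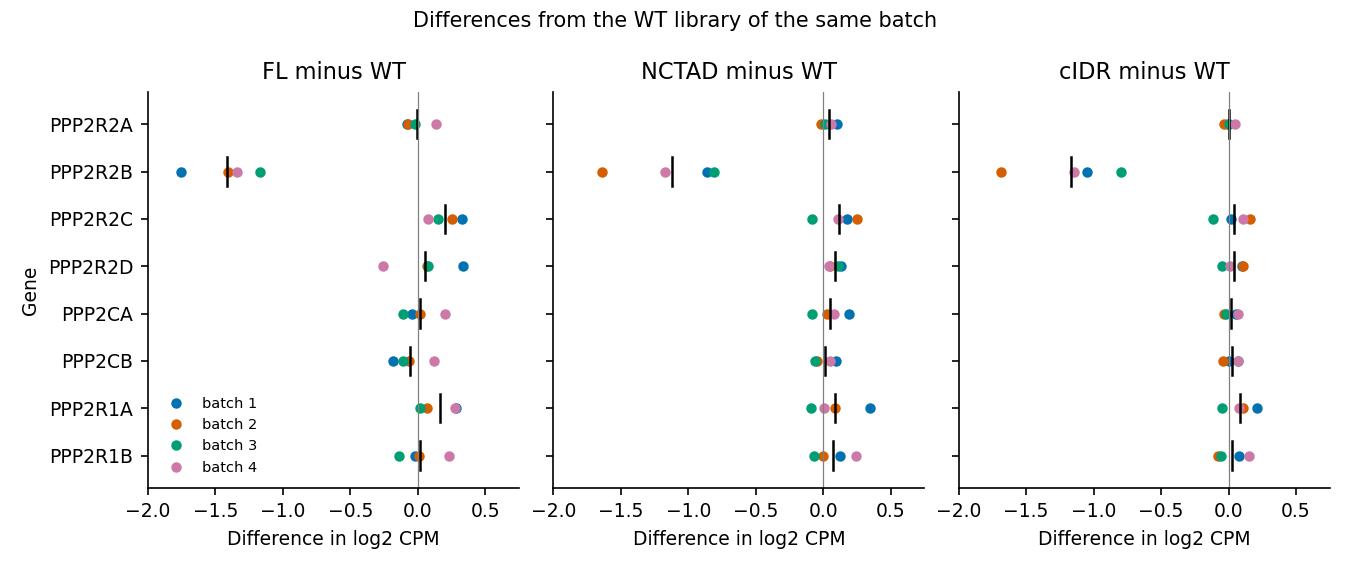
Differences in log2 CPM (horizontal axis) of each construct library from the WT library of its batch, for the 8 genes (vertical axis). Points are batches and black ticks their means; PPP2R2B lies at -0.80 or lower throughout, and the means of the other 7 genes lie between -0.059 and 0.20.

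The make-up of the B55 transcript pool is given next, as a description of the same contrast. PPP2R2B supplied 24.0 ± 3.91% of the summed B55 TPM in WT, against 12.1 ± 2.87%, 13.8 ± 3.20% and 13.7 ± 4.29% with FL, NCTAD and cIDR (SD, n = 4). The lowest WT library stood at 20.2% and the highest construct library, of cIDR, at 17.9%. PPP2R2A supplied 58.8 ± 2.88% in WT and 66.5 ± 1.92%, 65.1 ± 2.61% and 66.2 ± 2.60% in FL, NCTAD and cIDR. The sum itself was 153 ± 10.1 TPM in WT and 129 ± 22.6, 131 ± 7.39 and 129 ± 5.75 TPM in the constructs. The FL library of batch 1 had the lowest sum, and its PPP2R2A value of 64.3 TPM was the lowest of the 16 although its CPM, 104, was within the range of the others.

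**Figure D3:**
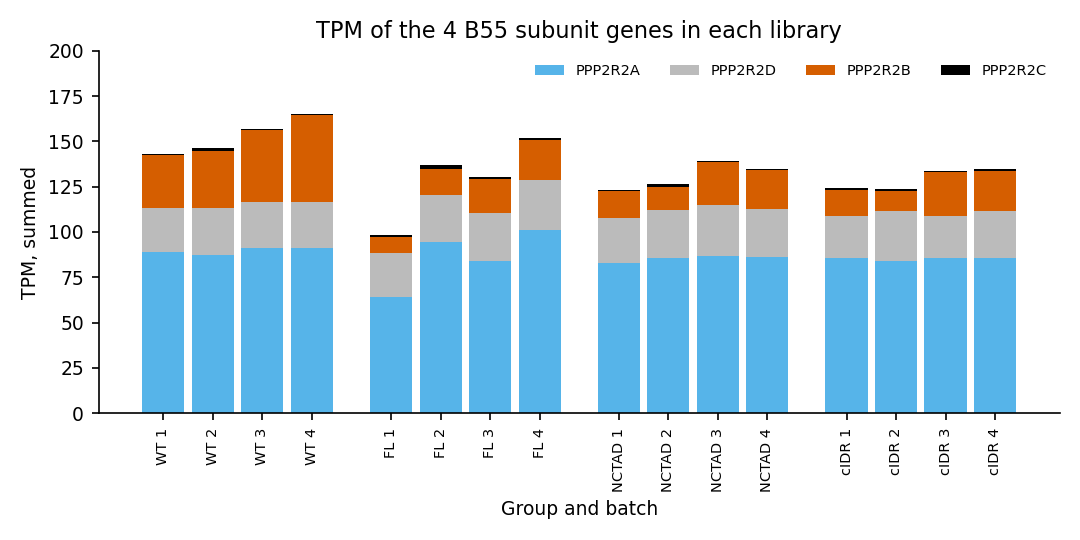
Stacked TPM (vertical axis) of the 4 B55 genes in each library (horizontal axis, group and batch). The PPP2R2B segment is 28.9 TPM or more in the WT libraries and at most 23.9 TPM in the construct libraries, and PPP2R2C is barely visible.

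The length of the PPP2R2B transcripts counted also differed between WT and the constructs. The ratio of estimated count to TPM gives a gene's mean effective transcript length, and here it was divided by the median gene's ratio in the same library. For PPP2R2B it averaged 4.42 ± 0.13 in WT, against 3.85 ± 0.32, 3.91 ± 0.38 and 3.99 ± 0.19 with FL, NCTAD and cIDR (SD, n = 4). The lowest WT value, 4.25, lay just above the highest construct value, 4.22 in NCTAD. In each of the 4 groups batch 2 gave the lowest value. The coefficient of variation of PPP2R2B was 8.35% over the 16 libraries, against a median of 3.89% over 11857 genes with at least 100 counts in every library, and 18.9% of those genes varied more. The ratio comes from the same libraries and contrast that chose PPP2R2B, so it carries no test, and transcript-level values were not analysed here.

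**Figure D4:**
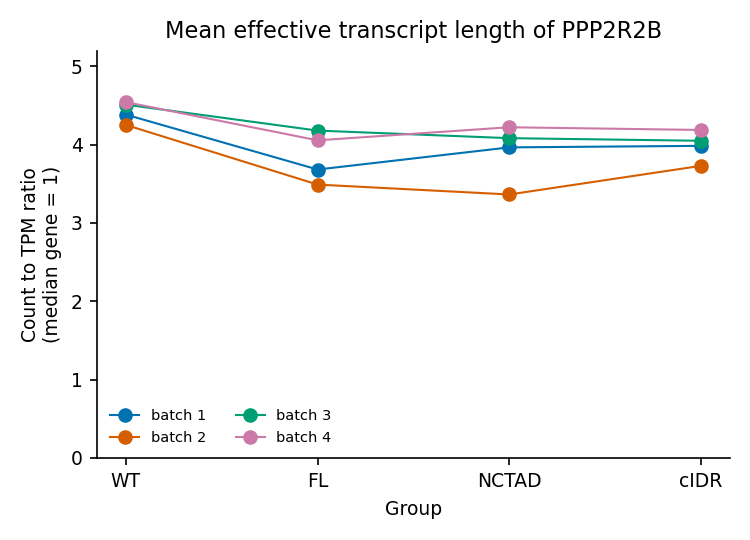
Count to TPM ratio of PPP2R2B relative to the median gene (vertical axis) in the 4 groups (horizontal axis). Points are libraries and lines join a batch; the WT libraries lie from 4.25 to 4.54 and the construct libraries from 3.36 to 4.22.

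Batch 2 was then compared with batches 1, 3 and 4, with group and batch as terms. Of the 8 genes, 4 were called in edgeR: PPP2R2C rose and PPP2R2B, PPP2CA and PPP2CB fell. Among all genes 53.9% were called, 27.7% higher and 26.1% lower, so a share of 4 in 8 is near the background. The p-values of this contrast measure the spread within batches. The 4 libraries of batch 2 are not separate batches, and what set batch 2 apart was not tested.

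PPP2R2C had the largest difference of the 8. In batch 2 its CPM was 3.82 for WT, 4.56 for FL, 4.54 for NCTAD and 4.26 for cIDR. In the 12 other libraries it ranged from 1.83 to 2.79 CPM, so batch 2 did not overlap them. The share of all genes without overlap between batch 2 and the other libraries is not given here. The means were 4.30 ± 0.35 and 2.22 ± 0.27 CPM (SD, n = 4 and n = 12), a log2 fold change of 0.96 ± 0.086 (SE; edgeR adjusted p = 3.51e-07). Of all genes, 8.50% had a higher log2 fold change.

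PPP2R2B fell by 0.69 ± 0.12 on the log2 scale in batch 2 (edgeR adjusted p = 0.000196), from a mean of 170 CPM over the other batches to 108 CPM. Batch 1 was low as well. Against batch 1 alone the difference was -0.20 (adjusted p = 0.277) and against batch 4 alone it was -0.97. The WT library of batch 2 was above that of batch 1, as was FL, while NCTAD and cIDR were below theirs.

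The catalytic genes were both lower in batch 2. PPP2CA was at 242 to 252 CPM in batch 2 and at 279 to 334 CPM in the 12 other libraries, a fall of 0.27 ± 0.047 on the log2 scale (SE; edgeR adjusted p = 0.000201). PPP2CB was at 75.1 to 78.7 CPM against 76.2 to 95.6 CPM, which overlap, a fall of 0.20 ± 0.047 (adjusted p = 0.00236). On the log2(TPM + 0.1) scale neither catalytic gene was called, and 2 of the 8 genes were. The scaffold genes were not called: PPP2R1A differed by -0.074 (adjusted p = 0.248) and PPP2R1B by -0.11 (adjusted p = 0.0699). PPP2R1A was instead highest in batch 1, at 442 ± 44.9 CPM, against means of 334 to 354 CPM in the other batches (SD, n = 4). PPP2R2A (-0.088, adjusted p = 0.0658) and PPP2R2D (-0.11, adjusted p = 0.162) were not called either. These 4 small differences changed sign on the TPM scale, where the median of all genes was higher too. That median was 0.097 with log2(TPM + 0.1) and 0.065 with log2(TPM + 1), beside 0.035 in the edgeR fit.

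**Figure D5:**
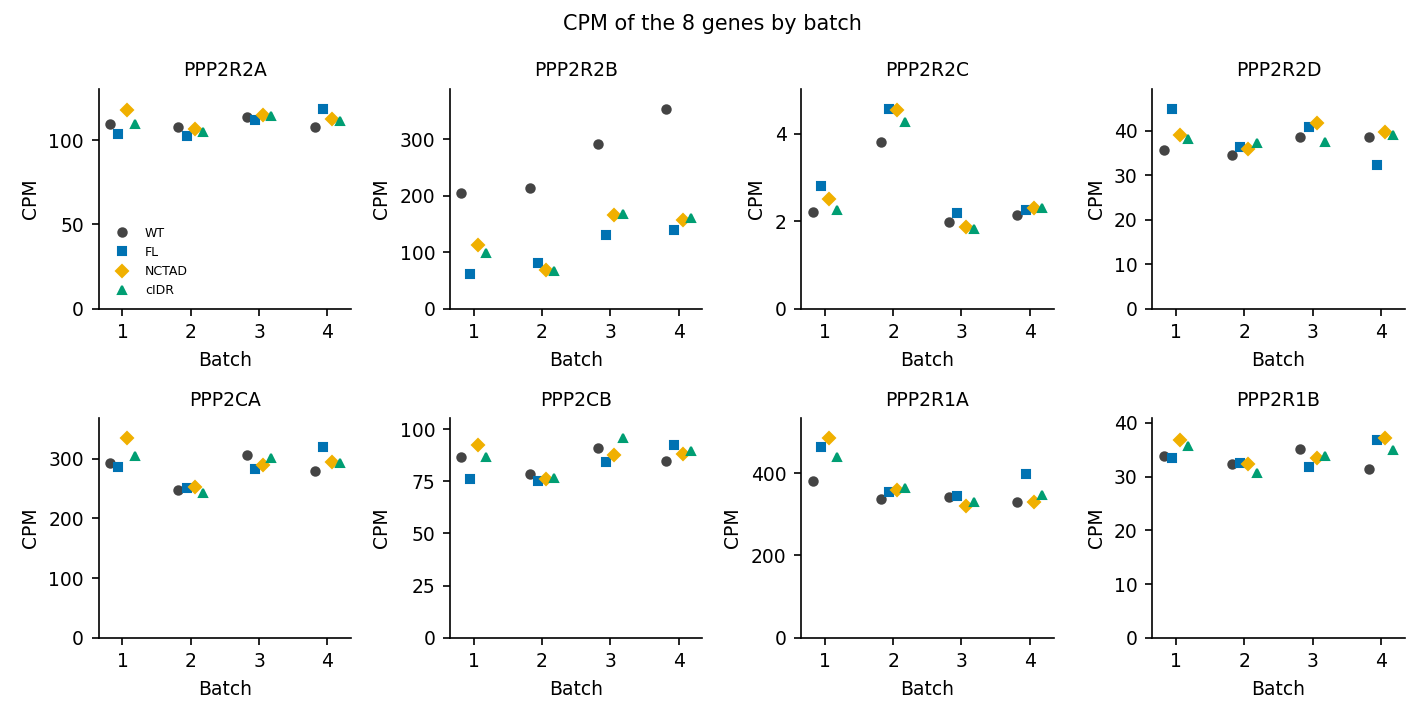
CPM (vertical axes, each from 0) of the 8 genes in batches 1 to 4 (horizontal axes), with symbols for the 4 groups. PPP2R2C is at 3.82 to 4.56 CPM in batch 2 and at 1.83 to 2.79 CPM elsewhere, and PPP2CA in batch 2 lies under all other libraries.

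Markers of the response to low oxygen moved with batch 2. Of 15 hypoxia-responsive genes, 13 rose in batch 2 and 0 fell, beside 27.7% and 26.1% of all genes, with a median log2 fold change of 0.92 against 0.035 over all genes. VEGFA, which encodes an angiogenic growth factor, had a mean of 450 CPM in batch 2 and 166 CPM elsewhere. CA9, a carbonic anhydrase, was low in both, at 0.658 and 0.169 CPM. In the comparisons with WT, the fit with the block called 1 of the 15 in FL, 7 in NCTAD and 9 in cIDR, all higher, beside 0.102%, 0.456% and 0.486% of all genes. The group-only edgeR fit called 0, with 3, 3 and 4 of the 15 at an unadjusted p under 0.05. The part of these genes in the PP2A differences was not tested.

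Other genes of the PP2A system were taken from a list of 26: other regulatory subunits, assembly factors, inhibitors and related phosphatases. All 26 were tested. In each of the 6 group comparisons 0 of 26 were called in edgeR, with or without the block. The group-only fit had 0 at an unadjusted p under 0.05 in each, and the fit with the block had 1 in NCTAD against FL (PABIR1, an inhibitor) and 1 in cIDR against WT (PPME1, the methylesterase of the catalytic subunit). The list's median log2 fold change against WT was 0.014 for FL, 0.017 for NCTAD and 0.0012 for cIDR, beside 0.014, 0.019 and 0.0097 over all genes. By role, the largest differences from WT among genes with an average log2 CPM of 1 or more were 0.13 ± 0.077 for PPME1 in cIDR, 0.13 ± 0.081 for PABIR1 in NCTAD and 0.11 ± 0.091 for PPP2R5B, a B56 subunit, in cIDR. The remaining roles lay at -0.10 for STRN, a striatin, 0.092 for PPP2R3B and 0.095 for PPP4C, the catalytic subunit of PP4. MASTL, the kinase whose substrates inhibit PP2A-B55, was at 0.061 in NCTAD. PPP2R3A, a regulatory subunit at a mean of 0.401 CPM, was below that level and differed more, by 0.60 ± 0.35 in cIDR, 0.40 ± 0.35 in NCTAD and -0.070 ± 0.35 in FL (SE), none called.

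In batch 2, 12 of the 26 were called, 3 higher and 9 lower, which is 46.2% beside 53.9% of all genes. The list's median log2 fold change was -0.073, beside 0.035 over all genes. IGBP1, which binds free catalytic subunits, rose by 0.53 ± 0.050, from 28.9 to 41.7 CPM. The B56 subunit PPP2R5C (0.12) and the striatin STRN (0.19) also rose. Among the inhibitors, CIP2A fell by 0.58 ± 0.055, SET by 0.46 ± 0.042 and ANP32A by 0.21 ± 0.042 on the log2 scale, and BOD1 by 0.17. ENSA, which inhibits PP2A-B55 once MASTL phosphorylates it, fell by 0.37 ± 0.037, and MASTL fell by 0.17 ± 0.043. PTPA, the activator of the core enzyme, fell by 0.31 ± 0.046, PPP2R3C by 0.15 and PPP2R5A by 0.14. ARPP19, the close relative of ENSA, differed by 0.054 and was not called. Of the related catalytic subunits, PPP6C differed by -0.068 and PPP4C by -0.051, neither called.

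Genes with a pattern like that of PPP2R2B were found by the root-mean-square difference of their log2 CPM over the 16 libraries, each value taken from the mean of its batch. A gene with no variation would score 0.577, and the median gene scored 0.591. IGKV2-30, an immunoglobulin variable segment, scored 0.254, with means of 4.13, 1.45, 1.80 and 2.00 CPM in WT, FL, NCTAD and cIDR. It has a near-identical copy in the genome, so its counts are uncertain. TIMM23B-AGAP6 (0.417), ZNF724 (0.429) and RRM2P3 (0.442) scored much nearer to the score of a flat gene than to 0. Like PPP2R2B itself, these genes were picked for this pattern and are given without a test.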

How the data were processed

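Poly(A) RNA of 16 SK-N-BE(2) libraries was sequenced from stranded libraries, per the labels' protocols. The deposited gene tables hold estimated counts that Salmon gives, and 15.5% of the values were not whole numbers. The deposited TPM values were used as the authors gave them. The submitters' processing notes name fastp, STAR, Salmon, featureCounts and GRCh38, with no versions. Library names in the tables differ from the group labels and were matched through each sample's description, and groups follow the titles. Libraries named WT there belong to the FL group, those named CTRL to the WT group and those named NTAD to NCTAD.

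Estimated counts were rounded and tested in edgeR 4.0.16 (R 4.3.3; TMM, filterByExpr, quasi-likelihood) over 19530 genes, with Benjamini-Hochberg adjustment and calls under 0.05. Group was the only term, and the replicate block was the alternative. Batch 2 was compared with the mean of the other batches with group and batch as terms. Log2 CPM used a prior count of 2. DESeq2 1.42.0 and limma 3.58.1 on log2(TPM + 0.1) and log2(TPM + 1) were alternatives, beside other filters, other size factors and each library left out. The biological coefficient of variation was 0.245 with group alone and 0.108 with batch.

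The labels give the replicate number as the batch, which pairs the libraries. Deviations from group means correlated at 0.308 on average between libraries of the same number (24 pairs, lowest 0.0674) and at -0.0945 between others. No 2 replicates agreed within sampling noise.

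The 8 genes and all lists were chosen with earlier results of these data known. Named beside them were listed partner genes that were called, or otherwise the largest difference per role (average log2 CPM 1 or more), and the 5 genes most like PPP2R2B, of which 1 is not reported here. Promoter sequences are from RefSeq (GRCh38.p14).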

Additional observations from a re-analysis of the deposited data

Results flagged for a closer look

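PPP2R2C in the WT group had 1 library far from the others. The WT library of batch 2 was at 3.82 CPM and the nearest other WT library at 2.21 CPM, a gap of 0.873 of the group's range, which is above Dixon's critical value for 4 libraries. It was 1 of 32 sets of 4 libraries tested (8 genes in 4 groups), and chance alone marks about 1 in 20. In FL, NCTAD and cIDR the library of batch 2 was also the highest for PPP2R2C, at 4.56, 4.54 and 4.26 CPM. The flag therefore repeats the batch 2 difference described above.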

How the results depend on the processing

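The group-only fit called 0 of the 8 genes in each comparison with WT. Where an alternative called 1, it was PPP2R2B, which was selected for its level against WT, so these counts support nothing about it. DESeq2 called 1 in FL against WT. With the replicate block, which pairs the libraries of a batch, 1 of 8 was called in FL, 1 in NCTAD and 1 in cIDR, and without batch 2 but with the block the counts were 1, 1 and 1. Leaving out each library in turn gave 0 to 0 without the block and 1 to 1 with it (the latter chosen after seeing the data). The block changed no other count of the 8 genes between groups. For batch 2 the 4 genes called became 2 with log2(TPM + 0.1) and 2 with log2(TPM + 1), 6 with DESeq2, and 4 to 6 with a library left out; the cause was not tested.

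Signs changed for small differences. In FL against WT, the group-only value of PPP2R2C ranged from -0.074 to 0.49 with a library left out. Both ends came from leaving out a library of batch 2, where PPP2R2C was higher. With the block it ranged from 0.16 to 0.24 and kept its sign. In cIDR against NCTAD, PPP2R2B ranged from -0.23 to 0.17 with a library left out, and from -0.16 to 0.064 with the block (0.053 without the cIDR library of batch 2). For batch 2, PPP2R1A was -0.32 against batch 1 alone, 0.080 against batch 3 alone and 0.015 against batch 4 alone. It was called in 1 of the 10 alternatives that kept all libraries. With log2(TPM + 0.1), PPP2R2A was 0.037, PPP2R2D 0.054, PPP2R1A 0.019 and PPP2R1B 0.095, and with log2(TPM + 1) they were 0.036, 0.052, 0.019 and 0.089. The median of all genes was 0.097 and 0.065 on these scales, beside 0.035 in the edgeR fit. PPP2R2C, at 82 to 242 counts a library, is the gene whose values depth limits most.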

Other observations

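The tables also list transcripts named after these genes. PPP2R2B-IT1, an intronic transcript of PPP2R2B, had 0 counts in all 16 libraries, and PPP2CA-DT, a divergent transcript beside PPP2CA, had 4 to 27 counts a library.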
